A study of Homo sapiens with 6 samples.

Results

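The genes described here are 9 genes of class I antigen presentation, read by gene symbol from a deposited table of 61806 genes in 6 RNA sequencing libraries. They are the heavy chain genes HLA-B, HLA-C, HLA-E and HLA-F, the light chain gene B2M, the peptide transporter genes TAP1 and TAP2, the loading factor gene TAPBP, and the regulator gene NLRC5. All 9 were found, and all 9 had a mean FPKM, taken over both groups, of 0.5 or more, the filter that 15870 genes of the table passed and that set which genes were tested. FPKM is the read count of a gene per kilobase of its exons, scaled to the number of counted reads of its library. The divisor is the deposited exonic size of the gene, such as 4623 bases for HLA-B and 2922 for HLA-E. That size need not be the length of the RNA made, so FPKM values of different genes need not rank their RNAs. The cells were U87-MG, an established human glioblastoma line that the labels call glioma, in 3 negative control (NC) libraries with the genotype label wildtype and 3 libraries titled GRIK1 siRNA with the genotype label GRIK1 knockdown. GRIK1 encodes a kainate-type glutamate receptor subunit. The series text speaks of an shRNA where the titles say siRNA, no treatment time is labelled, and the labels do not settle whether the numbers 1, 2 and 3 are replicates of a single siRNA or different siRNA sequences. Nothing says that the libraries came from separate cultures, so p-values measure the spread between these libraries, which may be technical.

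Class I molecules show peptides from inside the cell to CD8 T cells. The heavy chain is paired with beta-2-microglobulin in the endoplasmic reticulum, TAP1 and TAP2 together pump peptides into that compartment, and tapasin, the product of TAPBP, holds the empty heavy chain beside the pump until a peptide binds. NLRC5 is a transactivator that works at class I promoters together with the RFX complex, CREB/ATF factors and NF-Y. The HLA, TAP and tapasin genes lie in or beside the major histocompatibility complex on chromosome 6, most class I pathway genes are known to be induced by interferon, and loss of class I presentation is a known way for tumours to escape T cells.

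The libraries held between 11099909 and 14006968 counted reads. GRIK1 (ENSG00000171189) was covered by 18, 9 and 8 reads in NC 1, 2 and 3 and by 15, 20 and 20 reads in the other group, which is 0.233 ± 0.131 against 0.34 ± 0.0436 FPKM (SD, n = 3 each). It lay below the filter, and in a fit of all genes with a count the log2 fold change was 0.44 (SE 0.43, adjusted p = 0.62, edgeR quasi-likelihood test), or 0.19 (adjusted p = 0.824) without NC library 3. A lower level of GRIK1 was thus not measured in the group with the knockdown label, which is called siRNA-labelled throughout. On the opposite strand GRIK1 is overlapped by BACH1 and GRIK1-AS1, and whether counting used strand is not given in the sources used here. NC library 3 stood apart from the other 5, with a Pearson correlation across tested genes of 0.952 to 0.968 with each of them, where the highest correlation of each other library was 0.989 to 0.992. The differences below are therefore given with and without it. Of the glioma and astroglial markers, VIM and CD44 were measured at 981.2 ± 136.6 and 63.8 ± 11.4 FPKM in the NC libraries (SD, n = 3), while GFAP, S100B, NES and SOX2 lay below the filter. Of 5 tested markers in that list SLC1A3, a glutamate transporter gene of astroglia, was called lower like HLA-E and TAP1, at -0.68 (SE 0.12, adjusted p = 0.0378), or -0.75 (SE 0.07, adjusted p = 1.85e-07) without NC library 3. CD44 was called lower in that second fit alone (-0.28, SE 0.05, adjusted p = 0.000205). VIM, OLIG2 and CHI3L1 were called in neither fit, at -0.02, 0.09 and 0.02 over all 6 libraries. GFAP, below the filter, went the other way, with counts of 13, 11 and 8 in NC and 39, 36 and 38 in the siRNA-labelled libraries. The part of the astroglial markers in the class I results was not tested. Leucocytes, which carry much class I RNA, were represented by 10 markers, of which 9 were below the filter and 6, including CD3E and TYROBP, were at 0 in every library. The leucocyte markers summed to between 1.22 and 1.47 FPKM in the NC libraries and between 1.25 and 1.75 FPKM in the siRNA-labelled libraries. Most of each sum came from CSF1R, the only leucocyte marker that passed the filter. CSF1R measured 0.87 to 1.25 FPKM in the NC libraries and 0.96 to 1.28 FPKM in the siRNA-labelled libraries.

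To show the elements that the known regulators of these genes bind, the 200 bases before the annotated start are given for 6 members, as read from RefSeq (GRCh38.p14), 5′ to 3′ on the strand of the gene. A promoter was matched by symbol for 7 of the 9 members, and HLA-E and NLRC5 had no entry. Capitals mark every match, on either strand, to CCAAT (the box that NF-Y binds), TGACG (the core of the element that CREB/ATF factors bind), a GAAA repeat, which is GAAA, any 2 bases and GAAA again (the core of the interferon-stimulated response element, ISRE), and GGGGATT (the core of an NF-kappa-B type element). CCAAT reads ATTGG, and GAAA reads TTTC, where the match is on the other strand. HLA-B and HLA-C are shown as a pair of close heavy chain copies, B2M as their light chain, TAP1 and TAP2 as the 2 subunits of the pump, and TAPBP as the loading factor.
HLA-B promoter, chr6:31357180-31357379, minus strand: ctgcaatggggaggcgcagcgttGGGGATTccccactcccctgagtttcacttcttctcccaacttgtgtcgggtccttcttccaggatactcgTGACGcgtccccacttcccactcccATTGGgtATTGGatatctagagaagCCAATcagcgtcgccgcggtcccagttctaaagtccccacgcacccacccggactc
HLA-C promoter, chr6:31272093-31272292, minus strand: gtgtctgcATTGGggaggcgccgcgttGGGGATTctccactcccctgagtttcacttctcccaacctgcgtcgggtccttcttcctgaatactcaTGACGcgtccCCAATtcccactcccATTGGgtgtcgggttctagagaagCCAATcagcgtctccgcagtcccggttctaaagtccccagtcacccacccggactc
B2M promoter, chr15:44711317-44711516, plus strand: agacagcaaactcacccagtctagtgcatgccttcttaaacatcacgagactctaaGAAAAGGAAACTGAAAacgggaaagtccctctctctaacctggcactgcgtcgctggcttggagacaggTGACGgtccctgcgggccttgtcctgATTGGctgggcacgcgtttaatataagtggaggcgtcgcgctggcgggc
TAP1 promoter, chr6:32853705-32853904, minus strand: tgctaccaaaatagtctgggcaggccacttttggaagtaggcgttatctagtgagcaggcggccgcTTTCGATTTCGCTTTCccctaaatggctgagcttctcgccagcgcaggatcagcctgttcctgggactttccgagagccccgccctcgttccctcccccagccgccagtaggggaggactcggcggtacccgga
TAP2 promoter, chr6:32838740-32838939, minus strand: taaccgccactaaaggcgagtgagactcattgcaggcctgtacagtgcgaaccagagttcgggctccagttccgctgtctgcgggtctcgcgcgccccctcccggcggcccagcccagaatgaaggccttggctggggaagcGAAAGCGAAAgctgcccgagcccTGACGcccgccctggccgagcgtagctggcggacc
TAPBP promoter, chr6:33314079-33314278, minus strand: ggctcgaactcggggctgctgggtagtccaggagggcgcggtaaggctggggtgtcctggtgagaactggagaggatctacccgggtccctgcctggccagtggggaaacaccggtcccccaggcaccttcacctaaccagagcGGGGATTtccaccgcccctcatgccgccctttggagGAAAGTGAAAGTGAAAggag

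Of all 35116 stretches of the same length in that table, 28.0% hold CCAAT, 18.4% TGACG, 2.4% the ISRE core and 2.6% GGGGATT. HLA-B and HLA-C share their layout. The GGGGATT match lies from 177 to 171 bases before the start in HLA-B and from 173 to 167 in HLA-C, TGACG from 106 to 102 and from 105 to 101, and the last CCAAT from 56 to 52 in both. In all, HLA-B holds 3 CCAAT matches and HLA-C holds 4. B2M holds 1 TGACG and 1 CCAAT downstream of a pair of overlapping ISRE cores, at 144 to 135 and 138 to 129 bases before the start. TAP1 holds a like overlapping pair on the other strand, from 134 to 119 bases, and no exact match to the other 3 motifs. TAP2 holds 1 ISRE core and 1 TGACG within 58 bases of its start. TAPBP has an overlapping pair of ISRE cores from 20 to 5 bases before its start, with 1 GGGGATT match from 56 to 50. HLA-F, not printed, holds 2 CCAAT and 1 ISRE core, so that 5 of the 7 stretches hold an exact match to the ISRE core searched. These are exact matches of letters only and were not tested for binding. Variants of an element that differ from the searched letters are not marked, so a stretch without a match need not lack the element. The RefSeq starts used here need not be the outermost ends of the genes in the deposited table.

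Over all 6 libraries, 2 of the 9 genes were called at an adjusted p under 0.05 in the edgeR quasi-likelihood test, both lower in the siRNA-labelled libraries: HLA-E and TAP1. In that comparison 1.48% of the tested genes were called lower and 1.61% higher. NLRC5 had the largest difference of the 9, with a higher level in the siRNA-labelled libraries, and its adjusted p of 0.0573 missed the threshold. The remaining 6 genes, HLA-B, HLA-C, HLA-F, B2M, TAP2 and TAPBP, did not pass. The median log2 fold change of the 9 genes was -0.15, beside -0.017 over all genes tested. Without NC library 3, 6 of the 9 were called, NLRC5 higher and HLA-C, HLA-E, B2M, TAP1 and TAPBP lower, but the background was also much larger, with 18.3% of all tested genes called lower and 16.9% higher. The median log2 fold change of the 9 genes was then -0.2, beside 0.007 over all genes tested. Leaving out any one of the other 5 libraries instead gave 0 calls in edgeR, among the 9 genes and among all 15870. In those fits 3 or 4 of the 9 had an unadjusted p under 0.05, beside 14.1% to 27.9% of all tested genes.

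**Figure D1:**
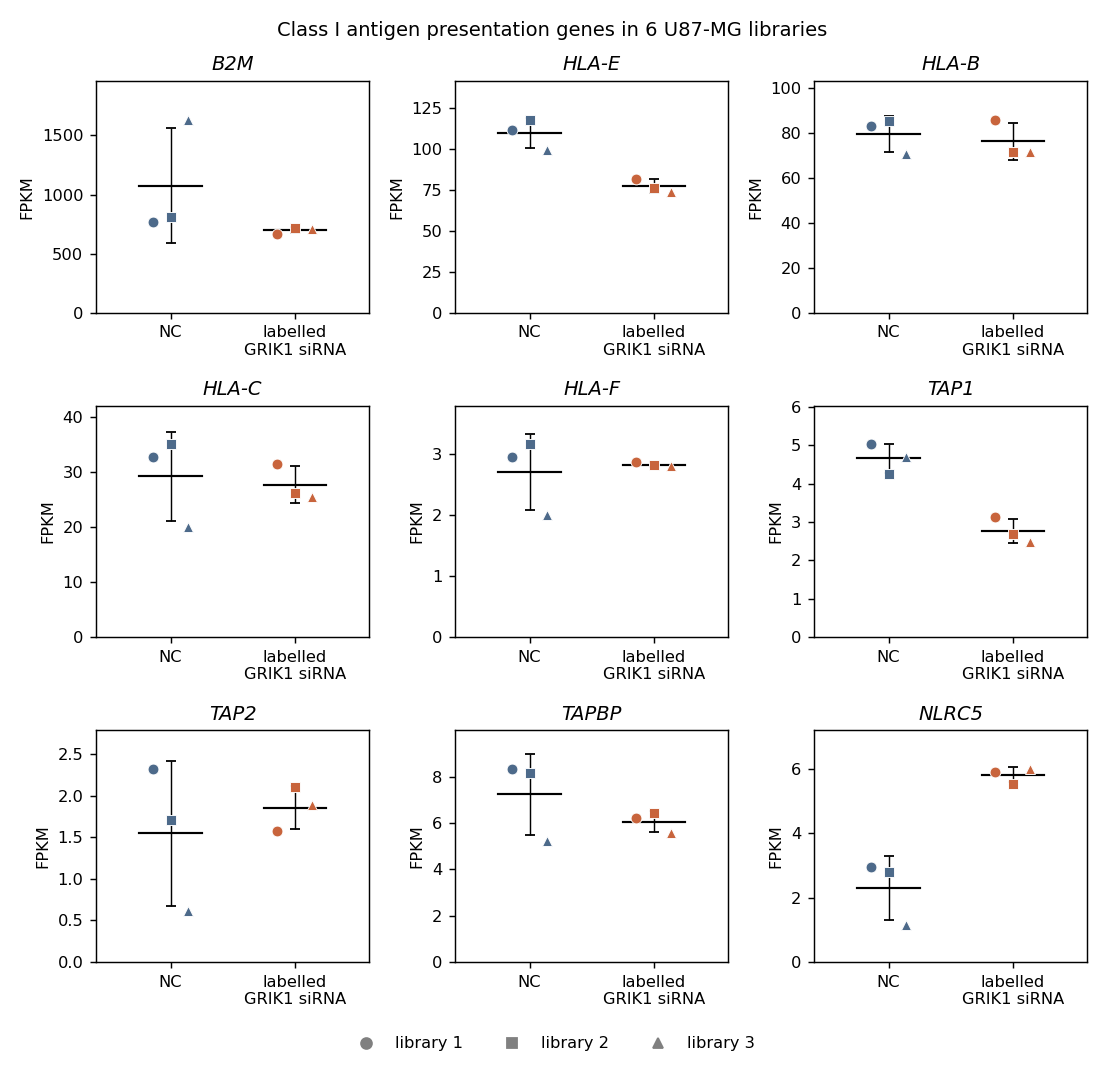
FPKM of each of the 9 class I genes (vertical axes, each from 0) in the 3 NC libraries and the 3 libraries labelled GRIK1 siRNA, with the mean as a horizontal bar and the SD as whiskers, and marker shapes for library numbers. HLA-E, TAP1 and NLRC5 separate the groups, and NC library 3 (blue triangle) is far above the other libraries for B2M and the lowest of the 6 for HLA-B, HLA-C, HLA-F, TAP2, TAPBP and NLRC5.

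HLA-E had the highest FPKM of the 4 heavy chain genes in the NC libraries. HLA-B had more reads there, 4269, 4391 and 4565 against 3615, 3835 and 4080 for HLA-E. Its exonic size was larger, 4623 against 2922 bases, so FPKM does not settle which RNA was more abundant. HLA-E (ENSG00000204592, chr6:30489509-30494194, plus strand, GRCh38) encodes the non-classical heavy chain that presents signal peptides of other heavy chains and is the ligand of the inhibitory receptor NKG2A on natural killer cells. It measured 111.46, 117.99 and 99.69 FPKM in NC libraries 1, 2 and 3, and 82.02, 75.98 and 73.8 FPKM in siRNA-labelled libraries 1, 2 and 3. The lowest NC library was above the highest siRNA-labelled library. Its level fell to 66.4% of the NC level, a log2 fold change of -0.59 (SE 0.11, adjusted p = 0.0438, edgeR). This is a bulk measurement, in which fewer cells of a kind and less RNA per cell cannot be told apart. Without NC library 3 the log2 fold change was -0.60 (SE 0.05, adjusted p = 1.14e-07). Over 16 other settings it ranged from -0.63 to -0.5. HLA-E passed in 8 settings when the fit with all 6 libraries is counted among them, and the adjusted p ran from 2.8e-23 to 0.26.

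The classical heavy chains did not pass the test with all 6 libraries. HLA-B (ENSG00000234745, chr6:31353872-31367067, minus strand) measured 83.19, 85.39 and 70.5 FPKM in the NC libraries and 85.91, 71.48 and 71.68 FPKM in the siRNA-labelled libraries. The groups overlapped, and the highest of the 6 values was in siRNA-labelled library 1. Its log2 fold change was -0.14 (SE 0.13, adjusted p = 0.504), and -0.17 without NC library 3 (SE 0.07, adjusted p = 0.0538).

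HLA-C (ENSG00000204525, chr6:31268749-31272130, minus strand), the heavy chain best known as a ligand of killer immunoglobulin-like receptors, measured 32.63, 34.96 and 19.91 FPKM in the NC libraries and 31.47, 26.1 and 25.39 FPKM in the siRNA-labelled libraries. NC library 3 was the lowest of the 6, so the groups overlapped, while NC libraries 1 and 2 were above every siRNA-labelled library. The log2 fold change was -0.15 (SE 0.19, adjusted p = 0.642). It was -0.32 (SE 0.08, adjusted p = 0.00493) without NC library 3, where HLA-C was at 80.3% of the level of the remaining NC libraries. The heavy chain genes are close copies, and of the 50-base windows of their annotated GENCODE 29 transcripts 2.4% in HLA-B, 6.71% in HLA-C, 5.13% in HLA-E and 1.7% in HLA-F are also in a transcript of another gene, so reads from those windows cannot be placed with certainty.

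HLA-F (ENSG00000204642, chr6:29722775-29738528, plus strand), a non-classical heavy chain with a largely intracellular protein, was far lower than the other 3 heavy chains. It measured 2.94, 3.15 and 1.99 FPKM in the NC libraries and 2.86, 2.81 and 2.79 FPKM in the siRNA-labelled libraries. The siRNA-labelled values lay inside the NC range, with a log2 fold change of -0.01 (SE 0.17, adjusted p = 0.988), and of -0.14 without NC library 3 (SE 0.12, adjusted p = 0.42). HLA-F-AS1 overlaps HLA-F on the opposite strand with 44 to 59 counts per library, against 120 to 159 for HLA-F, and without a known strand setting the reads of the 2 genes cannot be told apart. HLA-F changed sign between settings, from -0.17 to 0.1.

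B2M had the highest FPKM of the 9 genes. B2M (ENSG00000166710, chr15:44711358-44718851, plus strand) encodes beta-2-microglobulin, the light chain that every class I heavy chain shares. It measured 771.33, 813.62 and 1633.35 FPKM in the NC libraries and 667.53, 719.46 and 712.4 FPKM in the siRNA-labelled libraries. The groups did not overlap, but NC library 3 was far above NC libraries 1 and 2, which lay close to the siRNA-labelled libraries. Over all 6 libraries the log2 fold change was -0.74 (SE 0.34, adjusted p = 0.22), with an NC mean of 1072.8 ± 485.9 FPKM and an siRNA-labelled mean of 699.8 ± 28.2 FPKM (SD, n = 3 each). Without NC library 3 it was -0.20 (SE 0.05, adjusted p = 0.00316), or 86.8% of the remaining NC level, so the size of the difference rests on that library. None of the 50-base windows of the B2M transcript is in a transcript of another gene.

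TAP1 was the other gene that passed with all 6 libraries. TAP1 (ENSG00000168394, chr6:32845209-32853816, minus strand) measured 5.02, 4.25 and 4.69 FPKM in the NC libraries and 3.12, 2.69 and 2.49 FPKM in the siRNA-labelled libraries. Every NC library was above every siRNA-labelled library. TAP1 fell to 55.9% of the NC level, a log2 fold change of -0.84 (SE 0.15, adjusted p = 0.0387, edgeR). It was -0.77 without NC library 3 (SE 0.12, adjusted p = 8.98e-05) and between -0.93 and -0.59 over the 16 other settings. TAP1 passed in 9 settings when the fit with all 6 libraries is counted among them, and the adjusted p ran from 2.98e-08 to 0.233. TAP1 overlaps PSMB9, an immunoproteasome subunit gene, and PSMB8-AS1 on the opposite strand. TAP1 had 264, 224 and 311 counted reads in NC and 183, 161 and 156 in the siRNA-labelled group, and PSMB9 had 91, 103 and 154 in NC and 70, 87 and 77 in the siRNA-labelled group. The part of PSMB9 reads in the TAP1 counts was not tested.

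TAP2, the partner of TAP1 in the peptide pump, did not pass the test. TAP2 (ENSG00000204267, chr6:32821833-32838739, minus strand) measured 2.32, 1.71 and 0.61 FPKM in the NC libraries and 1.58, 2.1 and 1.89 FPKM in the siRNA-labelled libraries. NC library 3 was the lowest and NC library 1 the highest of the 6, so the siRNA-labelled values lay inside the NC range. The log2 fold change was 0.21 (SE 0.38, adjusted p = 0.745), and -0.14 (SE 0.14, adjusted p = 0.458) without NC library 3, so its direction rests on that library. Of the 50-base windows of the TAP2 transcript, 35.6% are also in a transcript of another annotated gene, which leaves its counts less certain than those of the other members.

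TAPBP (ENSG00000231925, chr6:33299694-33314284, minus strand) measured 8.33, 8.18 and 5.21 FPKM in the NC libraries and 6.21, 6.42 and 5.55 FPKM in the siRNA-labelled libraries. As for HLA-C, NC library 3 was the lowest of the 6 and NC libraries 1 and 2 were above all siRNA-labelled libraries. The log2 fold change was -0.33 (SE 0.16, adjusted p = 0.246) over all libraries. It was -0.47 (SE 0.08, adjusted p = 0.000152) without NC library 3, or 72.0% of the remaining NC level.

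NLRC5, whose product drives transcription of the class I genes, was at a higher level in the siRNA-labelled libraries. NLRC5 (ENSG00000140853, chr16:56989485-57083531, plus strand) measured 2.95, 2.79 and 1.15 FPKM in the NC libraries and 5.91, 5.55 and 6.0 FPKM in the siRNA-labelled libraries. The groups did not overlap, and NC library 3 was the lowest of all. NLRC5 had 406, 384 and 199 reads in NC and 906, 867 and 981 reads in the siRNA-labelled group, so counting error was small beside the difference. The fold over NC was 2.44, a log2 fold change of 1.28 (SE 0.28, adjusted p = 0.0573, edgeR), which missed the threshold. It passed without NC library 3, with a fold of 1.99 and a log2 fold change of 0.99 (SE 0.07, adjusted p = 1.67e-08). It also passed over all 6 libraries with DESeq2 (adjusted p = 0.000858, where 5.44% of all tested genes were called higher) and without the filter (adjusted p = 0.00114, where 2.13% were called higher). Over the 16 other settings the log2 fold change stayed between 0.96 and 1.48. NLRC5 passed in 5 of these settings, and the adjusted p ran from 8.42e-23 to 0.245.

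**Figure D2:**
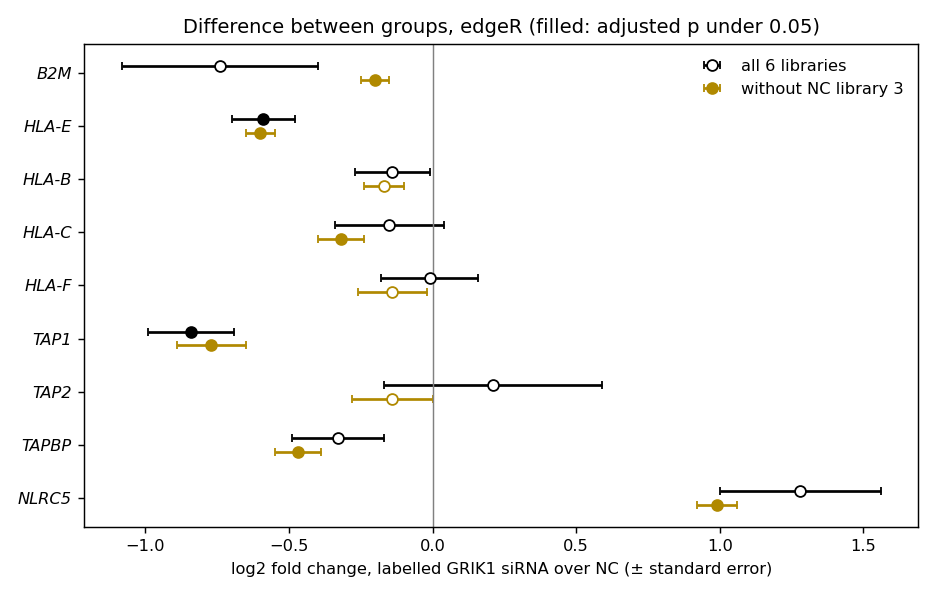
Log2 fold change of each gene (horizontal axis, siRNA-labelled over NC, whiskers ± SE, edgeR), over all 6 libraries in black and without NC library 3 in yellow, filled where the adjusted p was under 0.05. HLA-E and TAP1 are filled in both, at -0.59 and -0.84 over all libraries, and NLRC5 lies to the right in both, at 1.28 and 0.99.

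HLA-E, TAP1 and B2M were lower in every siRNA-labelled library than in every NC library, and NLRC5 was higher. Thus 4 of the 9 genes did not overlap between the groups, beside 19.0% of all tested genes that were apart in the lower direction and 19.4% in the higher direction. With 3 libraries a group, a two-sided exact permutation test of a single gene cannot give a p below 0.1.

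The order of the levels was B2M, HLA-E, HLA-B, HLA-C, TAPBP, TAP1, HLA-F, NLRC5 and TAP2 in the NC libraries, from the highest mean FPKM to the lowest. Neighbours in this order had separate ranges over the 3 libraries, except HLA-F and NLRC5, and NLRC5 and TAP2. In the siRNA-labelled libraries the first 5 places were the same, and NLRC5, HLA-F, TAP1 and TAP2 followed. There, HLA-E overlapped with HLA-B, TAPBP with NLRC5, and HLA-F with TAP1. NLRC5 thus moved from place 8 to place 6, and TAP1 from place 6 to place 8.

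Ratios of FPKM within a library do not depend on the scaling of libraries, and they were chosen with the values known and are given without a test. Their size does depend on the exonic sizes, which are the same in every library. HLA-E over HLA-B was 1.34, 1.38 and 1.41 in the NC group and 0.955, 1.06 and 1.03 in the siRNA-labelled libraries. The NC values lay close together, NC library 3 included, and apart from the others. HLA-E made up 48.4%, 48.9% and 51.9% of the summed FPKM of the 4 heavy chain genes in the NC group and 40.6%, 43.1% and 42.5% in the siRNA-labelled libraries.

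The sum of the 4 heavy chain genes itself was 230.2, 241.5 and 192.1 FPKM in the NC group and 202.3, 176.4 and 173.7 FPKM in the siRNA-labelled libraries, which overlapped. B2M over this sum was 3.35, 3.37 and 8.5 in the NC group and 3.3, 4.08 and 4.1 in the siRNA-labelled libraries. In FPKM the light chain thus exceeded the summed heavy chains in all 6 libraries, and NC library 3 was alone in its high ratio. HLA-B over HLA-C was 2.55, 2.44 and 3.54, and 2.73, 2.74 and 2.82, without a separation of the groups.

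Ratios that involve the pump and the regulator did not overlap between the groups. TAP1 over TAP2 was 2.16, 2.49 and 7.69 in the NC group and 1.97, 1.28 and 1.32 in the siRNA-labelled libraries. NLRC5 over TAP1 was 0.588, 0.656 and 0.245, and 1.89, 2.06 and 2.41. So, in FPKM, NLRC5 lay below TAP1 in each NC library and above it in each siRNA-labelled library. NLRC5 over HLA-F, whose groups overlapped, was 1.0, 0.886 and 0.578, and 2.07, 1.98 and 2.15.

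**Figure D3:**
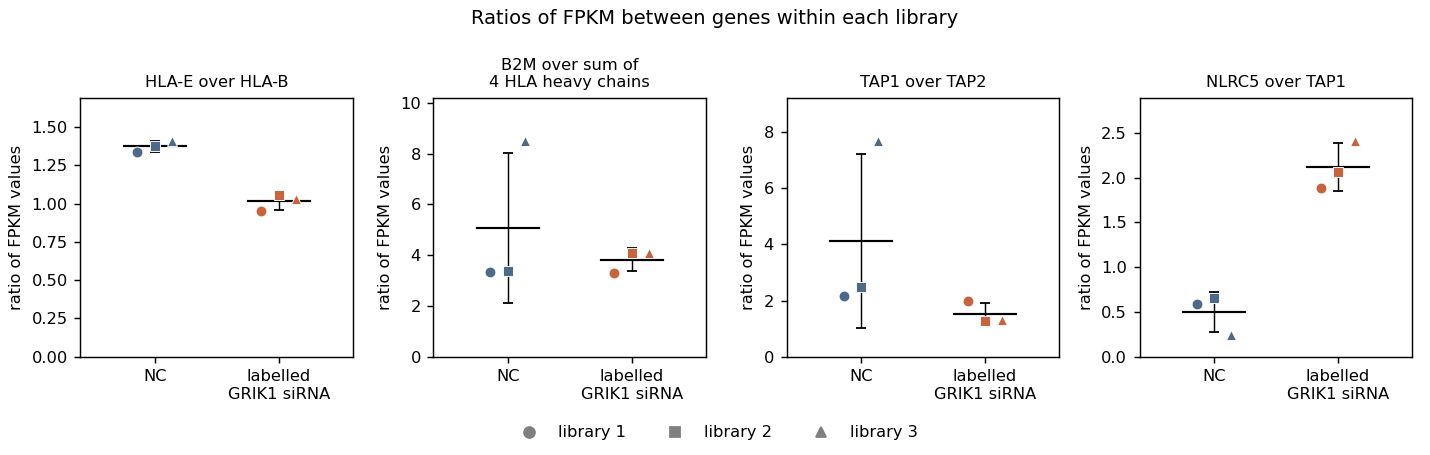
Ratios of FPKM between class I genes within each library (vertical axes, each from 0), with the mean as a bar and the SD as whiskers for the 3 NC and the 3 siRNA-labelled libraries. HLA-E over HLA-B and NLRC5 over TAP1 separate the groups with all 3 NC libraries on the same side, while B2M over the heavy chains (8.5) and TAP1 over TAP2 (7.69) are high in NC library 3 (blue triangle).

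The other genes of the pathway were read from 7 lists of 75 genes, of which 56 passed the filter and 19 did not. Over all 6 libraries 0 of the 56 rose and 2 fell in edgeR, RFX5 and IFNGR2. An unadjusted p under 0.05 was found in 10 of the 56, beside 25.1% of all tested genes. Without NC library 3, 4 rose and 16 fell. The shares of all tested genes called, given above, are the background for the counts of calls.

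RFX5 is the DNA-binding subunit of the RFX complex with which NLRC5 acts. It measured 9.81, 10.03 and 9.58 FPKM in the NC libraries and 7.5, 6.8 and 6.95 FPKM in the siRNA-labelled libraries. The groups were apart, with a log2 fold change of -0.56 (SE 0.11, adjusted p = 0.0489) and of -0.51 without NC library 3 (SE 0.08, adjusted p = 0.000104). The call was near the threshold and was lost without the filter (adjusted p = 0.0512), with the replicate number as a block (0.143) and in limma on either log2 scale (0.0584 and 0.0639). RFX5 was the only gene called among 15 tested regulators of class I genes, whose median was -0.12 (0.02 without NC library 3). STAT3, a transcription factor of cytokine signalling, had the next smallest p in that list. It measured 6.79, 6.12 and 5.2 FPKM, and 8.76, 9.09 and 8.52 FPKM, a log2 fold change of 0.46 (SE 0.11, adjusted p = 0.0696). STAT3 passed without NC library 3 at 0.42 (SE 0.06, adjusted p = 4.87e-05), and 2 genes of the list rose and 5 fell.

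IFNGR2, the second chain of the interferon gamma receptor, measured 29.06, 30.31 and 31.41 FPKM in the NC libraries and 18.48, 18.35 and 17.32 FPKM in the siRNA-labelled libraries. It fell with a log2 fold change of -0.84 (SE 0.12, adjusted p = 0.0303), and -0.74 without NC library 3 (SE 0.07, adjusted p = 1.82e-07). IFNGR2 was the only gene called of 9 interferon receptor, JAK and SOCS genes, whose median was 0.05 with and without NC library 3. IFNAR1, a chain of the type I interferon receptor, had a log2 fold change of -0.53 (SE 0.23, adjusted p = 0.199), and -0.20 without NC library 3 (SE 0.06, adjusted p = 0.0127).

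The 6 immunoproteasome and PA28 genes all had a negative log2 fold change, from -0.73 to -0.23 with a median of -0.35. Of them 0 passed in edgeR with all 6 libraries, where 3 had an unadjusted p under 0.05, and 4 fell without NC library 3. PSMB8, a catalytic subunit, measured 11.65, 11.96 and 13.15 FPKM in the NC libraries and 9.21, 9.15 and 9.27 FPKM in the siRNA-labelled libraries, a log2 fold change of -0.51 (SE 0.13, adjusted p = 0.084). PSMB9, whose gene overlaps TAP1, measured 2.46, 2.77 and 3.29 FPKM, and 1.69, 2.06 and 1.75 FPKM, a log2 fold change of -0.73 (SE 0.21, adjusted p = 0.0982). In 5 of the 6 genes the groups did not overlap and the siRNA-labelled libraries were lower, beside 19.0% of all tested genes. PSMB8 was at -0.38 (SE 0.08, adjusted p = 0.00124) and PSMB9 at -0.54 (SE 0.17, adjusted p = 0.0177) without NC library 3.

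Of the 8 genes of peptide supply and loading, 0 passed in edgeR with all 6 libraries and 1 had an unadjusted p under 0.05. Their median log2 fold change was -0.02 (-0.10 without NC library 3, where 1 rose and 3 fell). CALR, which encodes the chaperone calreticulin of the loading complex, measured 2353.42, 2406.66 and 1480.81 FPKM in the NC libraries and 1565.15, 1560.74 and 1534.7 FPKM in the siRNA-labelled libraries. Here NC library 3 lay beside the siRNA-labelled libraries, and the log2 fold change of -0.49 (SE 0.19, adjusted p = 0.164) became -0.64 (SE 0.04, adjusted p = 2.32e-09) without it. ERAP1, the aminopeptidase that trims peptides, had a log2 fold change of -0.24 (SE 0.2, adjusted p = 0.463), and -0.45 without NC library 3 (SE 0.06, adjusted p = 1.43e-05).

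Among 10 tested class I-like genes, 6 class II genes and 2 class I pseudogenes, 0 passed in edgeR with all 6 libraries, and 1 of these 18 genes had an unadjusted p under 0.05. FCGRT, the heavy chain of the neonatal Fc receptor that also pairs with beta-2-microglobulin, measured 8.12, 7.74 and 2.33 FPKM in the NC libraries and 9.49, 13.06 and 11.97 FPKM in the siRNA-labelled libraries. Its log2 fold change was 0.88 (SE 0.38, adjusted p = 0.203), and 0.51 without NC library 3 (SE 0.11, adjusted p = 0.00159). HFE, another heavy chain that pairs with beta-2-microglobulin, was at -0.47 (SE 0.13, adjusted p = 0.099), and at -0.50 without NC library 3 (SE 0.1, adjusted p = 0.0011). The class II genes HLA-DRB5 and CD74, the latter being the invariant chain, were at -0.27 (SE 0.22, adjusted p = 0.476) and 0.25 (SE 0.25, adjusted p = 0.559). Without NC library 3, HLA-DRB5 passed at -0.47 (SE 0.13, adjusted p = 0.0103), CD74 was at -0.0021 (SE 0.11, adjusted p = 0.99), and the class I-like list had 1 gene higher and 1 lower. The pseudogenes HLA-K and HLA-H were at -0.44 (SE 0.49, adjusted p = 0.596) and -0.05 (SE 0.44, adjusted p = 0.955), and neither passed in the fit that leaves out NC library 3, at -0.36 (SE 0.62, adjusted p = 0.699) and -0.17 (SE 0.44, adjusted p = 0.806).

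**Figure D4:**
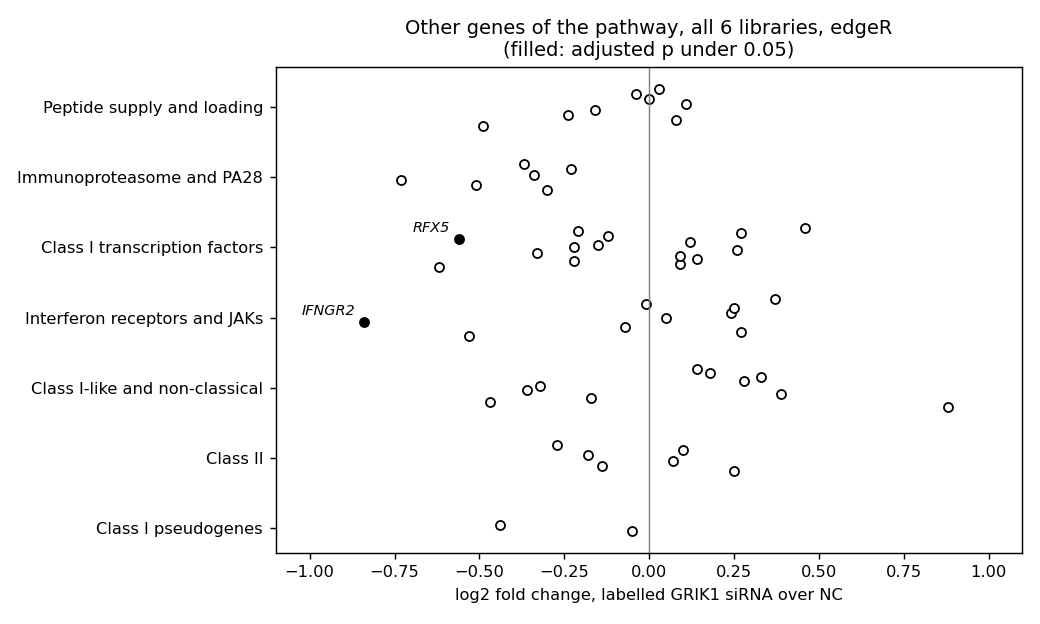
Log2 fold change (horizontal axis, siRNA-labelled over NC, all 6 libraries, edgeR) of the 56 tested genes of 7 pathway lists, 1 point a gene, filled where the adjusted p was under 0.05. RFX5 and IFNGR2 are the 2 filled points, and all 6 immunoproteasome and PA28 genes lie to the left of 0.

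To find the genes whose pattern was most like the mean of the class I genes, the 9 genes were averaged as z-scores of log2 CPM, the count scaled to library size. The average was 0.58, 0.66 and -0.35 in the NC group and -0.02, -0.36 and -0.51 in the siRNA-labelled libraries, so that on this average NC library 3 lay with the siRNA-labelled libraries. The average mixes members that differ in direction. In CPM, NC library 3 was the highest of the 6 for B2M and TAP1 and inside the NC range for HLA-E. It was the lowest for HLA-C, HLA-F, TAP2 and NLRC5, and lay between siRNA-labelled libraries for HLA-B and TAPBP. The 5 genes with the highest Pearson correlation with this average over the 6 libraries were ZNF500 (0.996), ZNF397 (0.995), FZD2 (0.995), KAT2A (0.994) and UNC93B1 (0.993). These values describe 6 libraries, of which NC library 3 stands apart, and are the highest of all tested genes outside the 9.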

How the data were processed

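RNA of U87-MG cells was analysed in 3 NC libraries and 3 libraries labelled GRIK1 siRNA, each grouped by its label. The authors deposited, for each of 61806 genes, whole-number read counts without normalization and FPKM values computed from them. Count divided by exonic size and by library total gave 100% of the deposited FPKM values (tolerance 0.0051). The submitters' processing notes name cutadapt 1.9.1, HISAT2, HTSeq and GRCh38, while the annotation and strand setting are not given in the sources used here. No library was pooled, 0 value columns were left unassigned and 0 rows named no gene.

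Counts were scaled by TMM and tested in edgeR 4.0.16 (R 4.3.3) by quasi-likelihood, two-sided and without a covariate, over the 15870 genes whose FPKM averaged 0.5 or more. Benjamini-Hochberg adjustment ran over all tested genes, and an adjusted p under 0.05 was a call. SE is the absolute log2 fold change divided by the square root of F. The fit was tested on simulated data in which the spread between libraries was capped and no library stood apart. That test therefore does not show how the fit performs with NC library 3. Alternatives were median-of-ratios scaling, DESeq2 1.42.0, omitting the filter or raising it to 1 FPKM, limma 3.58.1 on log2(FPKM + 1) or log2(FPKM + 0.1), the replicate number as a block, an absolute log2 fold change over 1 as a further condition, and leaving out each library. A robust fit, and DESeq2 or no filter without NC library 3, were added after seeing the data. Tables were made with Python 3.11.15, numpy 2.4.6 and pandas 2.3.3.

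The 9 genes and the gene lists were chosen with earlier results of these data known. Genes named are the 9, GRIK1, in each pathway list the genes called or the 2 of smallest p, and the 5 genes most correlated with the mean z-score of the 9 (log2 CPM, prior count of 2). VIM, CD44, SLC1A3, OLIG2, CHI3L1 and CSF1R, and the genes named from below the filter, were picked after their values were seen. Marker lists of astroglia, leucocytes, endothelium and neurons were read as well. The endothelial markers summed to 0.02 to 0.08 FPKM, and the neuronal markers to 1.88 to 2.81 FPKM. No 2 libraries agreed within sampling noise, since the smallest mean chi-square per gene was 2.41. Total counts of 11099909 to 14006968 set the precision.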

Additional observations from a re-analysis of the deposited data

How the results depend on the processing

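The counts of calls depended on single libraries. Leaving out one library gave 0 to 6 calls among the 9 class I genes and 0 to 20 among the 56 list genes, with the highest number in each case without NC library 3 and 0 without any other library. Among the 9 genes, 0 were called with the replicate number as a block, with limma on either log2 scale, or with an absolute log2 fold change over 1, 1 with the robust fit, 6 with DESeq2 without NC library 3 and 7 without the filter and NC library 3. Of all tested genes, 218 were called higher and 194 lower of 15870 with the robust fit. The numbers were 2062 and 2148 of 15870 with DESeq2 without NC library 3, and 2536 and 3267 of 33506 without the filter and NC library 3. Among the list genes, where 2 were called, 5 were called with DESeq2, 0 with the block, 1 with limma on log2(FPKM + 1), 1 on log2(FPKM + 0.1), and 0 with the fold condition. With DESeq2, 864 of all 15870 tested genes were called higher and 820 lower. Same-numbered libraries did not deviate together from their group means (Pearson r of -0.07, 0.044 and -0.043). NC libraries 1 and 2 gave similar values, at -0.07 and -0.061 against siRNA-labelled library 1, because NC library 3 weighs most in the NC deviations. This check therefore cannot show whether the numbers pair the libraries. With the block, 0 of all genes were called, 3324 having an unadjusted p under 0.05. HLA-F reversed to 0.02 at a mean FPKM of at least 1, to 0.01 with the block, and to 0.06 and 0.09 in limma (-0.14 to 0.1 leaving out one library). TAP2 reversed to -0.14 without NC library 3, to -0.14 there with DESeq2 and to -0.17 there without the filter (-0.14 to 0.6 leaving out one library). CD74 ranged from -0.0021 to 0.4, and HLA-H from -0.31 to 0.4 with 0.04 and 0.09 in limma. GRIK1 ranged from 0.12 to 0.91 and was called in none of 11 settings. The cause of these shifts was not tested. With 3 libraries a group and GRIK1 counts of 8 to 20, small differences were not detectable at this depth.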

Other observations

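Among the genes of the pathway lists that lay below the filter, 2 were picked after their values were seen. CD1D, a class I-like gene whose product presents lipids to natural killer T cells and pairs with beta-2-microglobulin, had counts of 4, 4 and 1 in NC libraries 1, 2 and 3 and of 32, 28 and 29 in the siRNA-labelled libraries, or 0.06 ± 0.0346 against 0.533 ± 0.0493 FPKM (SD, n = 3 each). HLA-DOB, a class II chain that modulates peptide exchange, had counts of 1, 3 and 2 against 8, 15 and 10, or 0.0867 ± 0.0473 against 0.437 ± 0.144 FPKM (SD, n = 3 each). Both were higher in every siRNA-labelled library, at low counts. In the edgeR fit without the filter, CD1D passed with a log2 fold change of 3.06 (SE 0.5, adjusted p = 0.000704), and HLA-DOB did not, at 2.20 (SE 0.68, adjusted p = 0.0668). HLA-G, the non-classical heavy chain known from trophoblast, had 1 count in siRNA-labelled library 1 and 0 in the other 5 libraries. CIITA, the class II counterpart of NLRC5, had between 71 and 110 counts per library, or 0.313 ± 0.0862 against 0.327 ± 0.0404 FPKM (SD, n = 3 each), without a separation of the groups.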
